A study of Homo sapiens with 8 samples.

Results

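The genes described here are 7 transcription factors that mark the developing kidney or gut: PAX2, PAX8, HNF4A, EMX2, LHX1, CDX1 and CDX2. They were chosen by name, with earlier results of these data known. Every non-control probe annotated with one of these symbols was taken, which gave 10 of 58201 probes for 7 of the 23362 genes that matched a RefSeq symbol. The study hybridized 8 Agilent 2-colour arrays of human cancer cell lines, 2 for each of 4 lines. On every array Cy3 carried RNA of mock cells, labelled as having had no transfection, and Cy5 carried RNA of that line transfected with either a mature miRNA strand or an siRNA (a small interfering RNA) in Lipofectamine RNAiMAX. A498 and 786-O, both renal cancer lines, each received miR-139-5p on 1 array and miR-139-3p on the other. MDA-MB-231, a breast cancer line, received si-GINS1_1 or si-GINS1_2, a pair of siRNAs against GINS1, a subunit of the replicative helicase. HCT116, a colorectal cancer line, received miR-490-5p or miR-490-3p. A line stands here for its tissue with 1 clone of tumour cells, the dyes were not swapped on any array, and the labels do not say whether both mock channels of a line carried 1 extract. The GINS1 probe, which checks the knockdown labels, read -1.31 on the si-GINS1_1 array and -1.92 on the si-GINS1_2 array (log2 transfected over mock).

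PAX2 and PAX8 are paired-box factors that act together in the intermediate mesoderm, and PAX8 stays on in the adult renal epithelium and in tumours that come from it. LHX1, a LIM homeobox factor, and EMX2, a homeobox factor, are needed for the ureteric bud and nephron to form. HNF4A is a nuclear receptor of proximal tubule, liver and intestine. CDX1 and CDX2 are caudal-type homeobox factors that set intestinal identity, and CDX2 is a widely used stain for colorectal tumours.

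The mature strands that were transfected are printed because the arrays differ by them, 5′ to 3′ from RefSeq on GRCh38.p14, with the seed (bases 2 to 8) in capitals. No pair of the 4 shared a seed.
miR-139-5p: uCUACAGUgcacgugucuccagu
miR-139-3p: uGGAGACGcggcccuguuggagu
miR-490-5p: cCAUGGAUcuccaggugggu
miR-490-3p: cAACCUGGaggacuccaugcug
The DNA words complementary to these seeds were looked for in the probes as printed by the array annotation, on the transcript strand. The word ACTGTAG (miR-139-5p) stood in 0.32% of all 58201 probes, CGTCTCC (miR-139-3p) in 0.168%, ATCCATG (miR-490-5p) in 0.448% and CCAGGTT (miR-490-3p) in 0.39%, and 0 of the 10 member probes held any of them. A probe covers only 60 bases of its transcript, so this says nothing of the rest of each mRNA.

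Which part of a transcript a probe reads matters for PAX2 and CDX1, whose probes differed in signal. The probes that read coding sequence in both genes and in HNF4A are printed for that reason, with a stop codon in capitals where the probe ends in one.
CDX1: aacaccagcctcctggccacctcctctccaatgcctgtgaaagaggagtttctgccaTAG
PAX2: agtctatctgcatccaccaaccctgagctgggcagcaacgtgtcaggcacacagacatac
HNF4A: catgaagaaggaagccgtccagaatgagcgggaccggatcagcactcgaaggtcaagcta
The CDX1 probe lies at chr5:149563184-149563243 (hg19, plus strand, NM_001804) and ends on the stop codon. The other CDX1 probes begin 184 and 575 bases after it, at chr5:149563427-149563486 and chr5:149563818-149563877, in the 3′ untranslated region. The coding PAX2 probe lies at chr10:102568921-102568980 (plus strand, NM_003990), and the other PAX2 probe at chr10:102589603-102589662 (NM_003988), at the 3′ end of the gene. The HNF4A probe (NM_001030004) matches 60 bases spread over 6278 bases at chr20:43036102-43042379 and so crosses a splice junction. The remaining members had 1 probe each, for PAX8 at chr2:113973575-113973634 on the minus strand, for EMX2 at chr10:119308881-119308940 on the plus strand, for LHX1 at chr17:35300424-35300483 on the plus strand and for CDX2 at chr13:28536302-28536361 on the minus strand.

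Mock levels are given as the log2 Cy3 level after background correction and normalization between arrays, and a probe counts as measured in a line when the scanner software marked it well above background in both mock channels of that line. The lowest level so marked lay between 5.77 and 5.87 over the 8 arrays. Fewer cells with a transcript and less transcript per cell cannot be told apart in such bulk RNA. Of the 10 member probes, 5 were measured in HCT116, 3 in MDA-MB-231 and 4 in each renal line. Over all probes the measured share was 42.3% for HCT116, 44.4% for MDA-MB-231, 40.3% for A498 and 38.9% for 786-O. The measured member probes were 1 each for PAX2, PAX8, LHX1, CDX1 and CDX2, so that 5 of 7 genes were measured in at least 1 line.

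**Figure D1:**
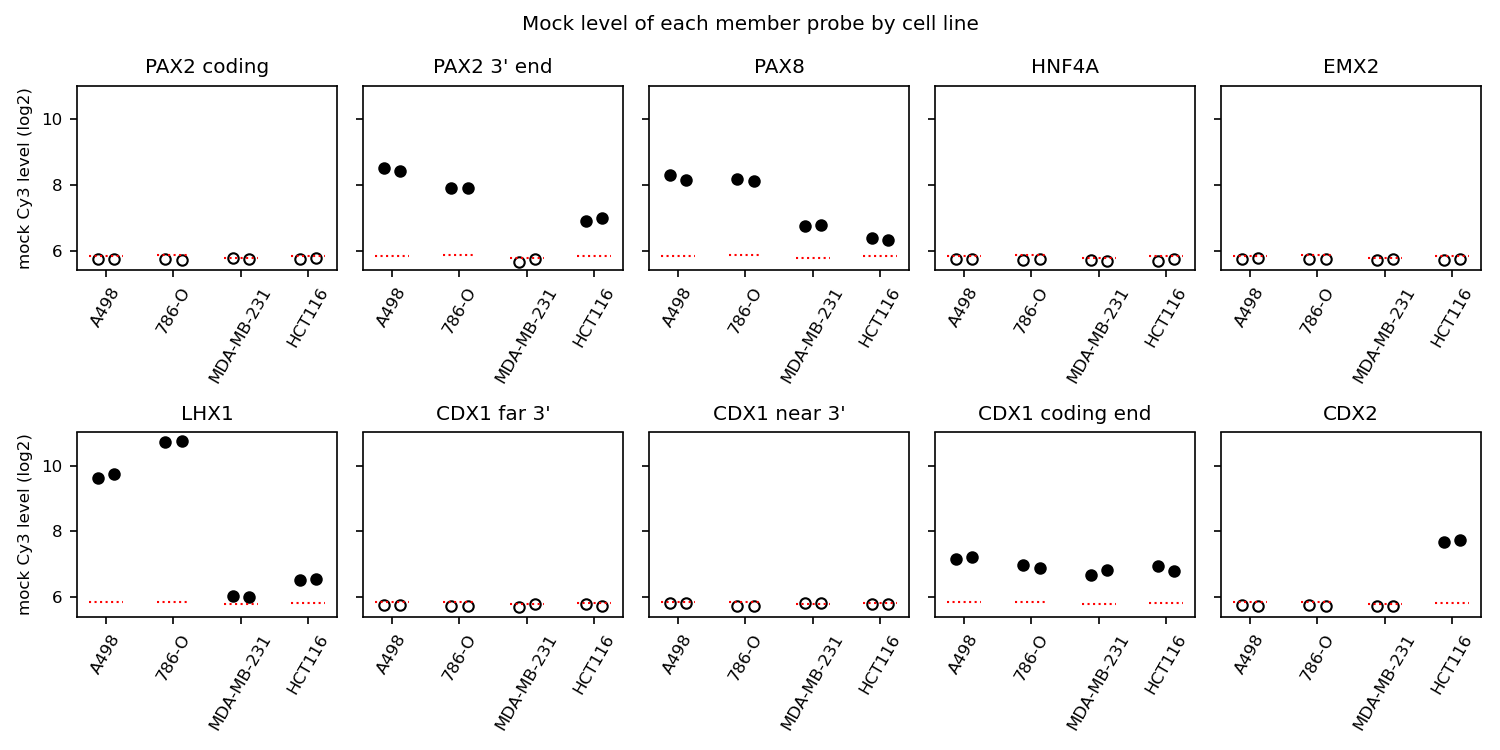
Mock Cy3 level (log2) of the 10 member probes in both mock channels of each of the 4 cell lines. Filled circles are channels well above background, open circles are not, and the red dotted mark is the line's mean of the lowest level well above background. LHX1, PAX8 and the PAX2 probe at the 3′ end are highest in the renal lines A498 and 786-O, and CDX2 is well above background in HCT116 alone.

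LHX1 had the widest range of line means among the members in these levels, though with the scanner's processed Cy3 signal the ranges of PAX2 (8.59) and CDX2 (7.84), each with lines not well above background, passed that of LHX1 (7.41). Its mock level was 10.73 and 10.75 in 786-O and 9.63 and 9.73 in A498, whereas it was 6.54 and 6.54 in HCT116 and 6.031 and 5.995 in MDA-MB-231, and no lines overlapped. 786-O exceeded A498 by 2.08-fold, HCT116 by 18.4-fold and MDA-MB-231 by 26.5-fold on the linear scale of these levels. The fold over MDA-MB-231, where the probe was only just above background, lay between 16.6 and 170 under the other background corrections and normalizations. A range between line means as wide as that of LHX1, 4.73 log2 units, was found in 0.532% of the 29677 probes measured in at least 1 line, whose median range was 0.54.

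PAX8 was measured in all 4 lines and was higher in the renal pair. Its level was 8.30 and 8.15 in A498 and 8.18 and 8.13 in 786-O, which overlapped, against 6.76 and 6.76 in MDA-MB-231 and 6.39 and 6.33 in HCT116. A498 exceeded MDA-MB-231 by 2.75-fold and HCT116 by 3.65-fold. The latter fold was 2.65 without normalization between arrays and reached 8.89 with the scanner's processed Cy3 signal. MDA-MB-231 stood 1.33-fold above HCT116 with no overlap.

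The PAX2 probe at the 3′ end gave 8.52 and 8.43 in A498. It gave 7.91 and 7.90 in 786-O, 6.90 and 6.98 in HCT116, and 5.66 and 5.73 in MDA-MB-231, where it was not well above background. A498 exceeded 786-O by 1.49-fold and HCT116 by 2.89-fold, and stood at least 6.46-fold above MDA-MB-231 in these levels. The bound is the mean of A498 against, on each MDA-MB-231 array, the higher of the lowest level well above background and the probe's own value. Without normalization between arrays A498 read 5.23-fold above MDA-MB-231, which is under that bound. The other alternatives put this fold between 19.6 and 385. HCT116 stood at least 2.24-fold above MDA-MB-231. The coding PAX2 probe was not well above background in any mock channel, with levels of 5.73 to 5.78, and its Cy5 channel passed on 1 of 8 arrays, that of miR-139-5p in A498. The PAX2 probes therefore disagree, and the renal pattern rests on the probe at the 3′ end alone.

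CDX2 was measured in HCT116 and in no other line, at 7.67 and 7.73, against 5.72 to 5.75 in the 6 mock channels of A498, 786-O and MDA-MB-231. HCT116 stood at least 3.60-fold above A498, at least 3.58-fold above 786-O and at least 3.78-fold above MDA-MB-231. Detection in HCT116 alone was found in 1.99% of all probes, and 1 of the 10 member probes had it. Detection in all lines but MDA-MB-231, the pattern of the PAX2 probe at the 3′ end, was found in 0.72% of all probes and again in 1 member probe. Detection in all 4 lines was found in 32.7% of probes and in 3 member probes, those of PAX8, LHX1 and CDX1. The 250 bases before the RefSeq start of CDX2 are printed because CDX2 was the member restricted to 1 line. They lie at chr13:27969316-27969565 on the minus strand of GRCh38.p14 and are written 5′ to 3′ on the gene's strand with CG dinucleotides in capitals.
CDX2: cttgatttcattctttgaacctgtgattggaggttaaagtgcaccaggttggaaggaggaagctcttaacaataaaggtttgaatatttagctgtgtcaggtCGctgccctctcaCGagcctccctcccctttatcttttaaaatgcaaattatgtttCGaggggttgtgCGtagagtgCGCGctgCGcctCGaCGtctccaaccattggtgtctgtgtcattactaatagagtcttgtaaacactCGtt
This stretch holds 10 CG dinucleotides against a median of 11 over 35116 promoters of the same length, and its G and C content is 45.2% against a median of 58%. The word TTTATG, as caudal factors favour, was searched on both strands, and the CDX2 stretch did not hold it, whereas it stood in 9.64% of all such promoters.

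CDX1 differed least between the lines. The probe that ends on the stop codon gave 6.95 and 6.79 in HCT116. In A498 it gave 7.17 and 7.21, in 786-O 6.99 and 6.89, and in MDA-MB-231 6.69 and 6.84, so the colorectal line lay within the range of the others. HCT116 overlapped with 786-O and with MDA-MB-231. A range of line means as wide as 0.43 was found in 58.2% of measured probes, and without normalization between arrays the order changed, with MDA-MB-231 highest. The CDX1 probes after the stop codon were not well above background in any mock channel, at 5.70 to 5.83, and the nearer of them passed in Cy5 on the si-GINS1_2 array alone. CDX1 signal thus rests on 1 of its 3 probes. HNF4A (5.69 to 5.75) and EMX2 (5.71 to 5.77) were not well above background in either channel of any array.

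Set against other probes, 4 of the 5 measured members had line means 1 log2 unit or more apart, as had 26.6% of the 29677 measured probes. CDX2 entered this set through HCT116 alone, and its levels in the other lines were not well above background. All 4 renal mock channels lay above all 4 others for 3 of the 5, LHX1, PAX8 and PAX2, and for 14.6% of measured probes. The test of the renal against the other lines was made by limma on 1 mean per line, 2 lines against 2. LHX1 was 3.94 log2 units higher in the renal lines (SE 0.47, unadjusted p = 0.00253, Benjamini-Hochberg adjusted p = 0.268), PAX8 was 1.63 higher (SE 0.19, unadjusted p = 0.00226, adjusted p = 0.257) and PAX2 was 1.87 higher (SE 0.54, unadjusted p = 0.0358, adjusted p = 0.478). CDX1 (0.25, SE 0.15) and CDX2 (-0.97, SE 0.77) had adjusted p of 0.721 and 0.783. None of the 5 passed, nor did any of the 29689 probes tested (0%), of which 9.63% had an unadjusted p under 0.05, as had 3 of the 5 members. Without normalization between arrays the median difference over all probes moved from -0.028 to -0.32, and CDX1 then read -0.31 while LHX1, PAX8 and PAX2 kept all renal channels above the others.

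The genes with the mock pattern most like each member were sought by the Euclidean distance of mean-centred log2 levels over the 8 mock channels, with 2 channels of each line. Nearest to PAX2 were HOXA11-AS (distance 0.29), the creatine transporter gene SLC6A8 (0.32) and CEBPB (0.45), where PAX2 itself lay 2.98 from a flat profile. Nearest to PAX8 were TTYH3 (0.15), the interferon receptor gene IFNAR2 (0.22) and P4HA2 (0.27). LHX1 had no neighbour closer than PKIA (0.75), followed by DKK3 (0.78) and ZDHHC8 (0.86), with a distance of 5.69 from flat. Nearest to CDX2 were the potassium channel gene KCNH2 (0.11), BMP7 (0.12), which encodes a growth factor of kidney development, and PALD1 (0.12). Outside HCT116 these genes lay at 5.69 to 5.87, around the lowest level well above background, as did CDX2. Their small distances are therefore not comparable with those for members measured in every line. CDX1, with 0.48 from flat, was matched by RNF32-DT (0.12), ERCC4 (0.13) and TUT7 (0.14).

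Other genes of the same programmes were taken from lists, each gene by its brightest probe. Of 13 partners and paralogs, HCT116 and A498 each had 5 measured, 786-O had 6 and MDA-MB-231 had 2. LHX2, a paralog of LHX1, was measured in A498 (8.68) and HCT116 (7.80) only. PAX6, the eye and pancreas paralog, was measured in 786-O (6.60) and HCT116 (6.09), and PAX9 in 786-O (6.17) and HCT116 (6.10).

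Of 24 other kidney factors, MDA-MB-231 had 14 measured, A498 had 13, HCT116 had 12 and 786-O had 11, and 19 were measured in at least 1 line. All renal channels lay above the others for 2 of the 19, SALL1 and HOXD11, against 14.6% of all measured probes, and below them for 1, FOXC1, against 15.9%. FOXD1, a marker of renal stroma, was not measured in MDA-MB-231 and lay at 7.52, 8.13 and 8.19 in A498, 786-O and HCT116. IRX3 was lowest in HCT116 (5.99), and HOXA11 was highest in A498 (7.52).

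Of 26 kidney epithelial genes, 786-O had 14 measured, A498 and MDA-MB-231 had 13 and HCT116 had 11. All renal channels lay above the others for 7 of the 18 measured in any line, and below for 4, against 14.6% and 15.9% of all measured probes. CDH6, a cadherin of the proximal tubule and of renal carcinoma, was 6.36 in A498 and 10.25 in 786-O and not measured in the other lines. FXYD2, a subunit of the sodium pump, was measured in 786-O alone (8.91). Highest in MDA-MB-231 were FBP1 (9.59, a gluconeogenic enzyme not measured elsewhere), FOLR1 (10.10) and PODXL (12.26). ANPEP, a brush border peptidase, was 8.78 in A498 and 7.87 in 786-O against 5.87 and 5.88 in MDA-MB-231 and HCT116.

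Of 22 other gut factors, 12 were measured in HCT116, as in A498 and MDA-MB-231, and 10 in 786-O. All renal channels lay above the others for 2 of the 14 measured in any line, and below for 3. Over all measured probes these shares were 14.6% and 15.9%. ELF3, an epithelial ETS factor, was 9.37 in A498 and 8.76 in HCT116, EHF was 8.60 in MDA-MB-231 and 8.07 in HCT116, FOXA2 was 8.50 in 786-O and not measured in HCT116, GATA6 was lowest in HCT116 (6.47), and KLF5 was highest there (7.45). Of 26 gut epithelial genes, 1 was measured in HCT116, MUC2 (6.02), which was measured in all 4 lines, whereas 786-O had 5 and A498 and MDA-MB-231 had 4 each. For 3 of the 6 measured in any line (TFF3, MUC2 and AGR2) all renal channels lay above the others, and for 0 below, against the same 14.6% and 15.9%. MUC2 did so only narrowly, with 6.080 in its lowest renal channel against 6.078 and 5.963 in the HCT116 channels. The markers VIL1, CDH17 and CEACAM5 were not well above background in any mock channel. TFF3, a goblet cell peptide, was 8.12 in 786-O and 6.98 in A498, FABP1 was measured in 786-O alone (6.35), GPA33 in MDA-MB-231 alone (6.14) and AGR2 in the renal lines (6.11 in A498). Of 10 liver target genes of HNF4A, 3 were measured in each renal line and 4 in each other line. SERPINA1 was 10.28 in 786-O and 8.86 in MDA-MB-231, CYP27A1 was 8.51 in MDA-MB-231, and APOA1, APOM and FGB stayed at or under 6.61.

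**Figure D2:**
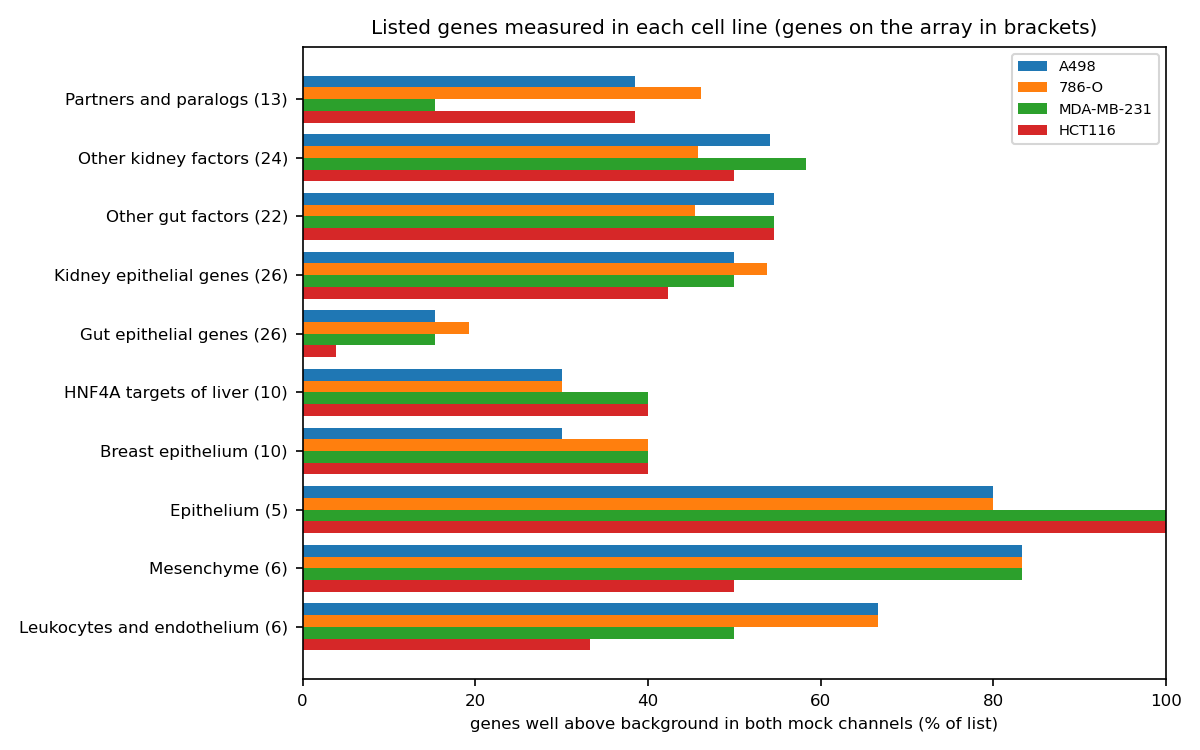
Share of each gene list (percent of its genes on the array, whose number is in brackets) that was well above background in both mock channels of a line. Bars start at 0 and are coloured by cell line. Gut epithelial genes were measured least often in HCT116 (1 of 26), and epithelial markers were complete in MDA-MB-231 and HCT116.

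Markers of the labelled tissues were read beside these levels. All 5 epithelial markers were lower in every renal channel than in every other channel, as were 15.9% of all measured probes, with EPCAM at 12.01 in HCT116 and 8.02 in MDA-MB-231 against 6.12 in A498 and 5.98 in 786-O, and CDH1 not measured in the renal lines. Of 6 mesenchymal markers, 5 were measured in A498, 786-O and MDA-MB-231 and 3 in HCT116, where VIM was 6.81 against 14.85 to 15.32 in the others. Of 10 breast markers, 3 were measured in A498 and 4 in each other line, and in MDA-MB-231 MUC1 stood at 7.88 and GATA3 at 6.98, while ESR1 lay between 5.996 and 6.118 in all lines. Of 6 leukocyte and endothelial markers, the renal lines had 4 measured, MDA-MB-231 had 3 and HCT116 had 2. CD14 reached 8.42 in MDA-MB-231, and CD3E, PTPRC and CDH5 stayed at or under 6.25. The part of these markers in the members' levels was not tested.

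On the transfected side, the log2 ratio of Cy5 over Cy3 compares transfected with mock cells on 1 array. No member probe reached a ratio of 1 in size on any array. In A498 the share of measured probes that did was 0.0705% on the miR-139-5p array and 0.172% on that of miR-139-3p, and in 786-O it was 0.032% and 0.0358%. It was 2.73% with si-GINS1_1 and 1.66% with si-GINS1_2. In HCT116 it was 1.23% on the array of miR-490-5p and 0.924% on that of miR-490-3p. The scanner's own log ratio put 1 member value past that size, 2.19 for the dim coding PAX2 probe on the miR-139-5p array of A498, against 0.10 here.

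**Figure D3:**
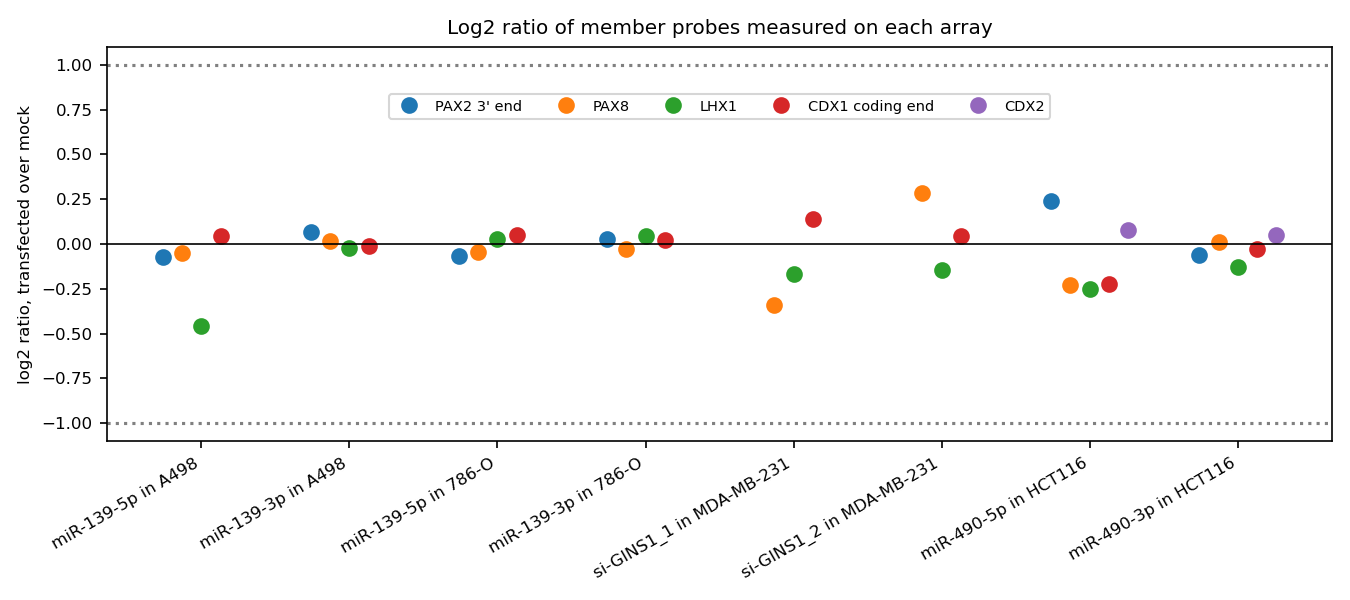
Log2 ratio of transfected over mock (vertical axis) for the 5 measured member probes on each of the 8 arrays, shown where either channel was well above background. Dotted lines mark 1 and -1. All points lie between them, and the farthest is LHX1 on the miR-139-5p array of A498 at -0.46.

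LHX1 gave the ratio farthest from 0 among the members as normalized here, but under none of the 4 alternatives (no background correction, offset 10, median centring and the scanner's log ratio). It read -0.46 with miR-139-5p in A498 but 0.029 with the same strand in 786-O, while the 3p strand gave -0.023 in A498 and 0.047 in 786-O. On the miR-139-5p array of A498, 0.627% of the measured probes lay as low or lower. Median centring in place of loess brought this value to -0.092, and it turned that of the 3p strand in A498 to 0.11. In MDA-MB-231 LHX1 read -0.17 and -0.14 with the siRNAs, and in HCT116 -0.25 on the miR-490-5p array and -0.13 on the other, so it was below 0 on 6 of 8 arrays. These sizes depended on how background was treated. With si-GINS1_1 and si-GINS1_2 LHX1 read -0.43 and -0.39 with offset 10 and -0.95 and -0.87 by the scanner's log ratio, which likewise put it at -0.62 and -0.30 on the miR-490 arrays.

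PAX8 took opposite signs with the GINS1 siRNAs. It read -0.34 with si-GINS1_1 and 0.29 with si-GINS1_2, while the mock levels of these arrays were both 6.76. Of the measured probes on those arrays, 24.1% and 23.1% were as far from 0. Over the other treatments of background and normalization the first value lay between -0.63 and -0.095 and the second between 0.38 and 0.48. In the renal lines PAX8 lay between -0.047 and 0.016, but at 0.25 with median centring on the miR-139-5p array of A498, and in HCT116 it read -0.23 on the miR-490-5p array and 0.014 on the other.

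PAX2, by the probe at the 3′ end, read -0.074 and -0.068 with miR-139-5p in A498 and 786-O, and 0.066 and 0.028 on the arrays of the 3p strand. In HCT116 it read 0.24 on the miR-490-5p array (0.42 by the scanner's log ratio) and -0.061 on the miR-490-3p array. Median centring turned its value with miR-139-5p in A498 to 0.24 and that on the miR-490-3p array to 0.068. CDX1 lay between -0.22, with miR-490-5p, and 0.14, with si-GINS1_1, which became 0.41 with median centring. CDX2, measured only in HCT116, read 0.079 on the miR-490-5p array and 0.049 on the other. On the miR-490-5p array, 3 of the 5 measured members (PAX8, LHX1 and CDX1) lay between -0.25 and -0.22, and PAX2 and CDX2 were above 0. By the scanner's log ratio the 3 spread out to -0.65 (PAX8), -0.62 (LHX1) and -0.39 (CDX1), and with offset 10 they read -0.44, -0.44 and -0.33. HCT116 had 1 array per strand, so these ratios have no replicate and no test.

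The groups with 2 arrays were tested by limma against a ratio of 0, in 1 fit of all 8 arrays. With miR-139-5p, 0 of 4 member probes tested passed an adjusted p of 0.05, as did 0.0129% of all 23291 probes, and the lowest unadjusted p of a member was 0.134, for LHX1 (mean -0.21, SE 0.12, SD 0.34 over the 2 lines). With miR-139-3p, 0 of 4 passed, and 0% of 22815 probes, with mean ratios between -0.0048 (PAX8) and 0.047 (PAX2). With si-GINS1, 0 of 3 passed, against 6.97% of 27808 probes. CDX1 had a mean of 0.092 (SE 0.046, adjusted p = 0.281), LHX1 of -0.16 (SE 0.12, adjusted p = 0.475) and PAX8 of -0.026 (SE 0.15, adjusted p = 0.935). These SEs pool the spread of the miR-139 and si-GINS1 groups, and so do the p-values. Between the siRNA arrays alone the SD was 0.018 for LHX1, 0.44 for PAX8 and 0.065 for CDX1. The LHX1 mean was -0.41 with offset 10 (adjusted p = 0.145) and -0.91 by the scanner's log ratio (adjusted p = 0.11). With 1 siRNA left out PAX8 stood at 0.29 without si-GINS1_1 and at -0.34 without si-GINS1_2, each the value of 1 array. The difference miR-139-3p minus miR-139-5p passed for 0 of 4 members and 0% of 22183 probes, with PAX2 at 0.12 (SE 0.075) and LHX1 at 0.23 (SE 0.17). This contrast did not pair the strands by line, and LHX1 differed by 0.43 in A498 and 0.017 in 786-O. With cell line as a replicate block 0 of 4 members passed as well. At an unadjusted p under 0.05 there were 0 members in each of these 4 comparisons. Over all probes it was 593 of 23291, 1014 of 22815, 7215 of 27808 and 151 of 22183. With so few members tested, 0 does not set them apart from all probes. With 2 arrays a group these tests do not show that the members stayed the same.

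**Figure D4:**
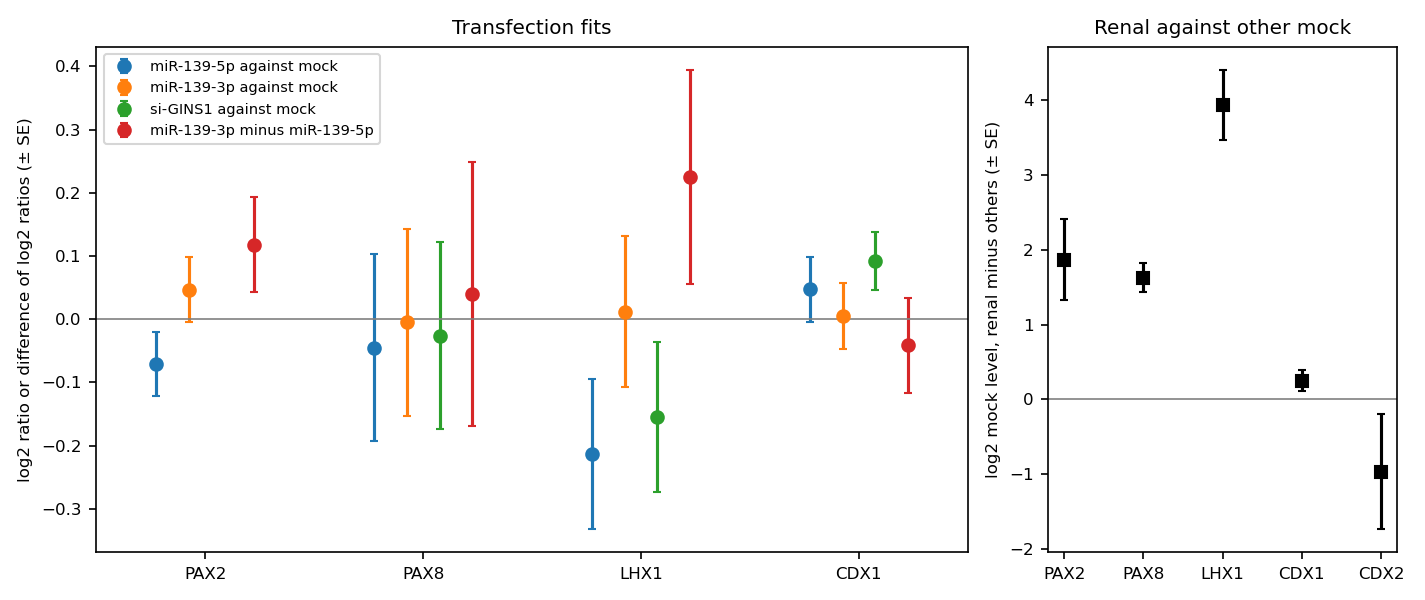
Fitted values of the measured members with their standard errors from limma. The left panel gives mean log2 ratios against mock and the difference of the miR-139 strands, and the right panel gives the log2 mock level of the renal lines minus the others, on its own scale. LHX1 at 3.94 is the widest difference between lines, and no transfection value exceeds 0.23 in size.

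Among the genes of the 10 lists, none passed with either strand of miR-139 or in their difference, and the lists' medians lay between -0.16 and 0.051 with miR-139-5p and between -0.20 and 0.062 with miR-139-3p. The si-GINS1 arrays carried different siRNAs in 1 line, and the test pooled their spread with that of the miR-139 arrays. There, 1 of 14 other kidney factors tested was called higher, FOXC1 (0.38, SE 0.053, adjusted p = 0.0285). Of 13 kidney epithelial genes 3 were called lower, FOLR1 (-1.02), FBP1 (-1.07) and the peptidase gene GGT1 (-0.61). Of 5 gut epithelial genes 1 was called lower, GPA33 (-0.41). CDH1 (-0.57), SNAI2 (-0.47) and CD14 (-1.19) were also called lower. Over all probes tested 3.33% were called higher and 3.63% lower, or 927 and 1010. With median centring 2690 were called higher and 285 lower, with offset 10 it was 535 and 981, and with the scanner's log ratio 16 and 59. The fitted values of these 8 genes kept their sign under every alternative, and 6 of the 8 passed with median centring (not FBP1 and GGT1), 7 with offset 10 (not FOXC1) and 1, CDH1, with the scanner's log ratio. With the si-GINS1 arrays alone in the fit no probe passed, though 2542 had an unadjusted p under 0.05. Medians were 0.021 for the kidney factors, -0.028 for the kidney epithelial genes and 0.036 for the 12 gut factors tested, where the median over all probes was 0.010. Ratios of 1 or more in size were read for FBP1 (-1.48 with si-GINS1_1), FOLR1 (-1.11 with si-GINS1_1), ANPEP (-1.24 with miR-139-3p in A498), CD14 (-1.18 and -1.20 with the siRNAs) and EPCAM (-1.35 with si-GINS1_2, 0.39 with si-GINS1_1).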

How the data were processed

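Per the file headers, the authors scanned 1 slide of 8 arrays once with Agilent Feature Extraction 11.5.1.1 and deposited the mean intensity and local background of each spot, linear and not normalized, and a log10 ratio of Cy5 over Cy3 made by that software. Each array had 62976 spots, 2075 of them controls, and 112 to 194 outlier spots per array were left out. Background was corrected with normexp (offset 50), ratios were normalized by loess and levels between arrays by Aquantile in limma 3.58.1 under R 4.3.3, and tables were made with Python 3.11.15. The offset pulls dim probes toward 0. Without a dye swap, dye bias cannot be removed from ratios or levels. The number of arrays limits the precision. Of 33080 probes with an accession 31104 were matched to RefSeq symbols. Tests were limma with Benjamini-Hochberg adjustment, over probes that passed the scanner's background flag in either channel of each array of the group, or, for mock levels, in both mock channels of at least 1 line. Both mock channels of a line were averaged, and p-values measure only the spread between these samples. All members were named, with the 3 nearest genes by pattern for each measured member, and of each list up to 5 measured genes with the widest range of line means and any with a ratio of 1 or more in size. VIL1, CDH17, CEACAM5, FOXC1, GGT1, SALL1 and HOXD11 fall outside this rule and were chosen after their values were seen. Some genes that the rule names are not reported here. The members and lists were chosen with earlier results of these data known. The fits were tested on simulated data.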

Additional observations from a re-analysis of the deposited data

Results flagged for a closer look

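LHX1 lay below 0 on both arrays of A498 and above 0 on both arrays of 786-O. Its log2 ratio was -0.46 (miR-139-5p array) and -0.023 (miR-139-3p array) in A498, and 0.029 and 0.047 in 786-O. The difference between the lines was not tested, since each strand has 1 array per line. Of the measured probes, 84% and 56.5% lay as far from 0 on the miR-139-3p arrays of A498 and 786-O, and median centring put the A498 value there at 0.11, above 0.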

How the results depend on the processing

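Across the alternatives, no member probe passed with either strand of miR-139, in their difference or between renal and other mock. All 8 arrays lay on 1 slide with 1 scan, so a slide block could not be run. With si-GINS1 1 of 3 member probes passed with cell line as a random block (CDX1, adjusted p = 0.0483, against up to 0.773 elsewhere). With 1 siRNA left out PAX8 read -0.34 without si-GINS1_2 and 0.29 without si-GINS1_1. Each is the value of 1 array with opposite sign, and calls of members from such fits are not given. Over all probes the si-GINS1 calls were 1937, but 2975 with median centring, 75 with the scanner log ratio, 0 on the group's own arrays, 10520 with the random block and 6667 to 9393 without 1 siRNA. Calls for miR-139-5p were 3, but 6 with offset 10 or own arrays only, 7 with the scanner log ratio, and 0 with median centring, no filter, the random block or 1 line left out. Calls for miR-139-3p were 0, but 4 with no background correction, 6 with offset 10, 7 with own arrays only and 13 with the scanner log ratio. The replicate block by cell line left the strand difference at 0 calls, with 63 probes at an unadjusted p under 0.05 against 151 without it. By the scanner log ratio 1 member value passed a size of 1. Signs turned with median centring for PAX8 (0.095 with miR-139-5p, 0.10 with miR-139-3p, 0.16 with si-GINS1) and PAX2 (0.077 with miR-139-5p), and with the scanner log ratio for LHX1 (-0.0077 with miR-139-3p). Without normalization between arrays CDX1 read -0.31 in the renal lines. With 1 line left out, LHX1 ranged from -0.46 to 0.029 with miR-139-5p and from -0.023 to 0.047 with miR-139-3p. PAX8 then ranged from -0.026 to 0.016 and CDX1 from -0.011 to 0.022 with miR-139-3p. CDX2 ranged from -1.95 to 0.017 between renal and other mock, the last without HCT116. Between strands 1 array was left out at a time, so the strands no longer had matched lines, and LHX1 ranged from -0.017 to 0.47. Within a line its strand difference was 0.43 in A498 and 0.017 in 786-O. A lone array left in a group was assumed to vary like the other groups. The cause of these changes was not tested. For all 3 members with the renal pattern it held under each of the 4 alternatives for levels. Dim probes carry only a bound.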
